A study of Mus musculus with 5 samples.

Results

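The 6 genes described here belong to the secretory epithelium of the mouse uterus: the gland factor Foxa2, the implantation serine proteases Prss28 and Prss29, the protease inhibitor Spink1, the secreted protein Prap1 and the receptor subunit Gabrp. They were found by gene name among the 28666 genes of the count table, each name matched 1 gene, and all 6 had enough counts to be among the 17013 genes tested by edgeR. The members were chosen on their measured values in these libraries. Their levels and fold changes are therefore given as a description, and the counts of those that pass a test are printed beside the share of all genes and support nothing.

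The series holds RNA-seq of whole uteri from ICR females, with aged-SP replicates 1 and 4 (n = 2) set against young-SP replicates 1, 2 and 4 (n = 3). All females were 6 to 8 weeks old and pseudopregnant after caging with vasectomized C57BL/6 males, so that they received seminal plasma (SP) without sperm. The males were 12 to 14 weeks old for the young-SP group and 12 to 18 months old for the aged-SP group, and the comparison asks whether the age of the male changed the uterus before implantation. The uteri were taken at 3.0 days post coitum (dpc) by the study's methods and at 3.5 days after caging by the sample labels. Whether a library holds 1 female or several is not given in the sources used here, and the young-SP library that the study left out was not analysed here.

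The total count lay between 15071914 and 16728601 per library, and each pair of libraries differed by more than sampling noise (12.4 to 58.5 for the chi-square divided by its degrees of freedom). Young-SP replicate 1 stood apart from the other 2 young-SP libraries in most of the genes described here, so fold changes, calls and list medians are given with and without it.

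Uterine glands open into the lumen and release the proteins that prepare the endometrium and the blastocyst for implantation. Foxa2, a forkhead transcription factor, marks the glandular epithelium of the adult mouse uterus and is needed for glands to form and to work. Secretion by the epithelium follows estrogen and progesterone, so the levels of its products change within days around implantation. The whole uterus was sequenced, so these values do not show which cells made a transcript, and fewer cells of a type cannot be told apart from less RNA per cell.

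Foxa2 (ENSMUSG00000037025), on the minus strand of chromosome 2 from 148042877 to 148046969 (GRCm38, as all positions here), was present at a similar level in every library. In CPM (counts relative to the library total after edgeR's TMM scaling) it stood at 10.6 and 11.96 in aged-SP replicates 1 and 4. In young-SP replicates 1, 2 and 4 it stood at 8.51, 14.1 and 11.6. The groups overlapped, with young-SP replicate 1 the lowest library and young-SP replicate 2 the highest. The mean was 11.3 ± 0.976 CPM in the aged-SP group (SD, n = 2) and 11.4 ± 2.82 CPM in the young-SP group (SD, n = 3). The log2 fold change, taken as aged-SP over young-SP throughout, was -0.019 (SE 0.25), and -0.205 (SE 0.19) without young-SP replicate 1. The gland factor thus differed between the groups by less than the spread between libraries.

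Prss28 (ENSMUSG00000024171) and Prss29 (ENSMUSG00000034039) encode the implantation serine proteases, trypsin-like enzymes that uterine glands secrete and that are known for their part in blastocyst hatching and implantation. They lie side by side on the plus strand of chromosome 17, Prss28 from 25308646 to 25311876 and Prss29 from 25318654 to 25322681, with 6777 bases and no other gene start between them. Each has up to 6 exons in GENCODE M21. Their longest coding sequences have 825 and 840 bases, for 274 and 279 amino acids, and 61.5% of the 853 columns of their alignment were identical. Other pairs among the 6 genes were closer in profile over the libraries than this pair. Any part of the bases before the starts in the levels was not tested. The stretches of 250 bases before the starts of Prss28 and Prss29 are shown as a description. They are from RefSeq (GRCm38.p6, plus strand), at chr17:25308396-25308645 and chr17:25318404-25318653, and capitals mark the runs of at least 10 bases that are identical in both and aligned.
Prss28: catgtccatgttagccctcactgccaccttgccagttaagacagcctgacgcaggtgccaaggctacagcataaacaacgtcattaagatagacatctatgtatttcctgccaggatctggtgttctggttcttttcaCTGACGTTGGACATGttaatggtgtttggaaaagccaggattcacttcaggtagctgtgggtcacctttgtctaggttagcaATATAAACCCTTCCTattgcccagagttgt
Prss29: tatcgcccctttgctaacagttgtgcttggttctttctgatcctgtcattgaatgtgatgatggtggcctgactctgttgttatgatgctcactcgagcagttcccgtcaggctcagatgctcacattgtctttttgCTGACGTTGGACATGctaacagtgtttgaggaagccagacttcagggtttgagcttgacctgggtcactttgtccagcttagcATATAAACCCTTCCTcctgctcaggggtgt
Both runs have 15 bases. The first begins 112 bases before the start of Prss28 and 113 before that of Prss29, and the second begins 30 bases before each start. Of the 259 columns of the alignment of these sequences, 162 were identical (62.5%), and of the 155 columns over the 150 bases nearest the start, 112 were (72.3%).

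Forkhead and progesterone receptor letters were searched on both strands of the RefSeq promoters, which run from 250 bases before to 50 bases after a gene's start. The forkhead letters TGTTTAC are in 3.65% of the 32851 promoters and TGTTTGC in 5.07%, and neither is in any of the 7 promoters listed for 5 of the 6 genes. The progesterone receptor half-site letters TGTTCT are in 19.0% of all promoters and, among the 7, in that of Prss28, 129 bases before its start. The sequence of Spink1, on chromosome 18, was not used here.

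Prss28 was abundant in both aged-SP libraries and almost absent from 2 of the 3 young-SP libraries. Its counts were 23923 and 11943 in aged-SP replicates 1 and 4, which is 1446 and 764 CPM. In young-SP replicate 1 it had 1450 counts, or 90.7 CPM. In young-SP replicates 2 and 4 it had 6 and 4 counts, or 0.355 and 0.267 CPM. The groups did not overlap, and the lowest aged-SP library was 8.42-fold above the highest young-SP library, young-SP replicate 1. That library was itself 292-fold above the mean of the other 2. The group means were 1105 ± 482.5 CPM (SD, n = 2) and 30.4 ± 52.2 CPM (SD, n = 3). The log2 fold change was 5.18 (SE 2.19) with all libraries and 11.74 (SE 0.54) without young-SP replicate 1.

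Prss29 was the more abundant of the pair in every library. Its levels were 2458 and 2137 CPM in aged-SP replicates 1 and 4, from 40664 and 33412 counts. In young-SP replicates 1, 2 and 4 they were 385, 2.96 and 11.6 CPM, from 6156, 50 and 173 counts. The 2 aged-SP libraries were close to each other (1.15-fold apart) and both lay above the young-SP libraries, the lower of them 5.55-fold above young-SP replicate 1. The log2 fold change was 4.11 (SE 1.87), and 8.30 (SE 0.75) without young-SP replicate 1. By level per length, in FPKM (fragments per kilobase of transcript, scaled to the total of the library), Prss29 was 1.72-fold and 2.83-fold above Prss28 in aged-SP replicates 1 and 4, and 4.29-fold above it in young-SP replicate 1. In young-SP replicates 2 and 4 the FPKM ratio was 8.42 and 43.7, which rests on the 6 and 4 counts of Prss28. Between these 2 libraries Prss29 was 3.91-fold higher in replicate 4 (95% exact interval 2.84 to 5.47, counting error only), while the same ratio for Prss28 was 0.753 (0.156 to 3.18) and could not be told from 1 at this depth.

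Spink1 (ENSMUSG00000024503; chromosome 18, 43728069 to 43737237, minus strand) encodes a Kazal-type inhibitor of trypsin, best known from the pancreas. It did not follow the proteases. It stood at 153 CPM in aged-SP replicate 1 and at 12.2 CPM in aged-SP replicate 4. In young-SP replicates 1, 2 and 4 it stood at 11.1, 10.8 and 7.74 CPM. A single library was high, and aged-SP replicate 4 was 1.10-fold above the highest young-SP library. The log2 fold change of 3.07 (SE 0.94) was 3.15 (SE 1.15) without young-SP replicate 1 and 0.30 without aged-SP replicate 1. The markers of the pancreas other than Cela1, an elastase, were near 0. Of 10 markers 6 were in the table, and their summed level was 6.83 and 12.9 CPM in aged-SP replicates 1 and 4 and between 7.57 and 9.95 CPM in the young-SP group. Most of it was Cela1, at 6.65 CPM in the library where Spink1 was high. Of the list 2 genes were tested (median -1.53, and -1.58 without young-SP replicate 1) and none was called. Cpb1, a carboxypeptidase, had the larger fold change (log2 -3.65, SE 0.89), from levels of 0 to 2.14 CPM.

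Prap1 (ENSMUSG00000025467; chromosome 7, 140093395 to 140097200, plus strand) encodes a small proline-rich acidic protein that epithelia of the pregnant uterus and the gut secrete. It had 46148 counts in aged-SP replicate 1 and 7719 in aged-SP replicate 4, or 2790 and 494 CPM. In young-SP replicate 1 it had 2416 counts, or 151 CPM, and in young-SP replicates 2 and 4 it had 3 and 33 counts, or 0.177 and 2.203 CPM. The groups did not overlap, although the aged-SP libraries differed 5.65-fold between themselves. The lower of them was 3.27-fold above young-SP replicate 1. The log2 fold change was 5.004 (SE 2.29), and 10.46 (SE 1.46) without young-SP replicate 1. Between young-SP replicates 4 and 2 the ratio of Prap1 levels was 12.4 (95% exact interval 3.90 to 63.3, counting error only).

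Gabrp (ENSMUSG00000020159; chromosome 11, 33550781 to 33578959, minus strand) encodes the pi subunit of the GABA-A receptor, a chloride channel, and is known from the uterus and other epithelia rather than from neurons. Its levels were 343 and 179 CPM in aged-SP replicates 1 and 4, and 117, 1.301 and 2.47 CPM in young-SP replicates 1, 2 and 4. The counts behind the lowest values were 22 and 37. The groups did not overlap, and the lower aged-SP library was 1.53-fold above young-SP replicate 1. Young-SP replicate 1 was 62.0-fold above the mean of the other 2 young-SP libraries. The log2 fold change was 2.70 (SE 1.72), and 7.11 (SE 0.50) without young-SP replicate 1.

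**Figure D1:**
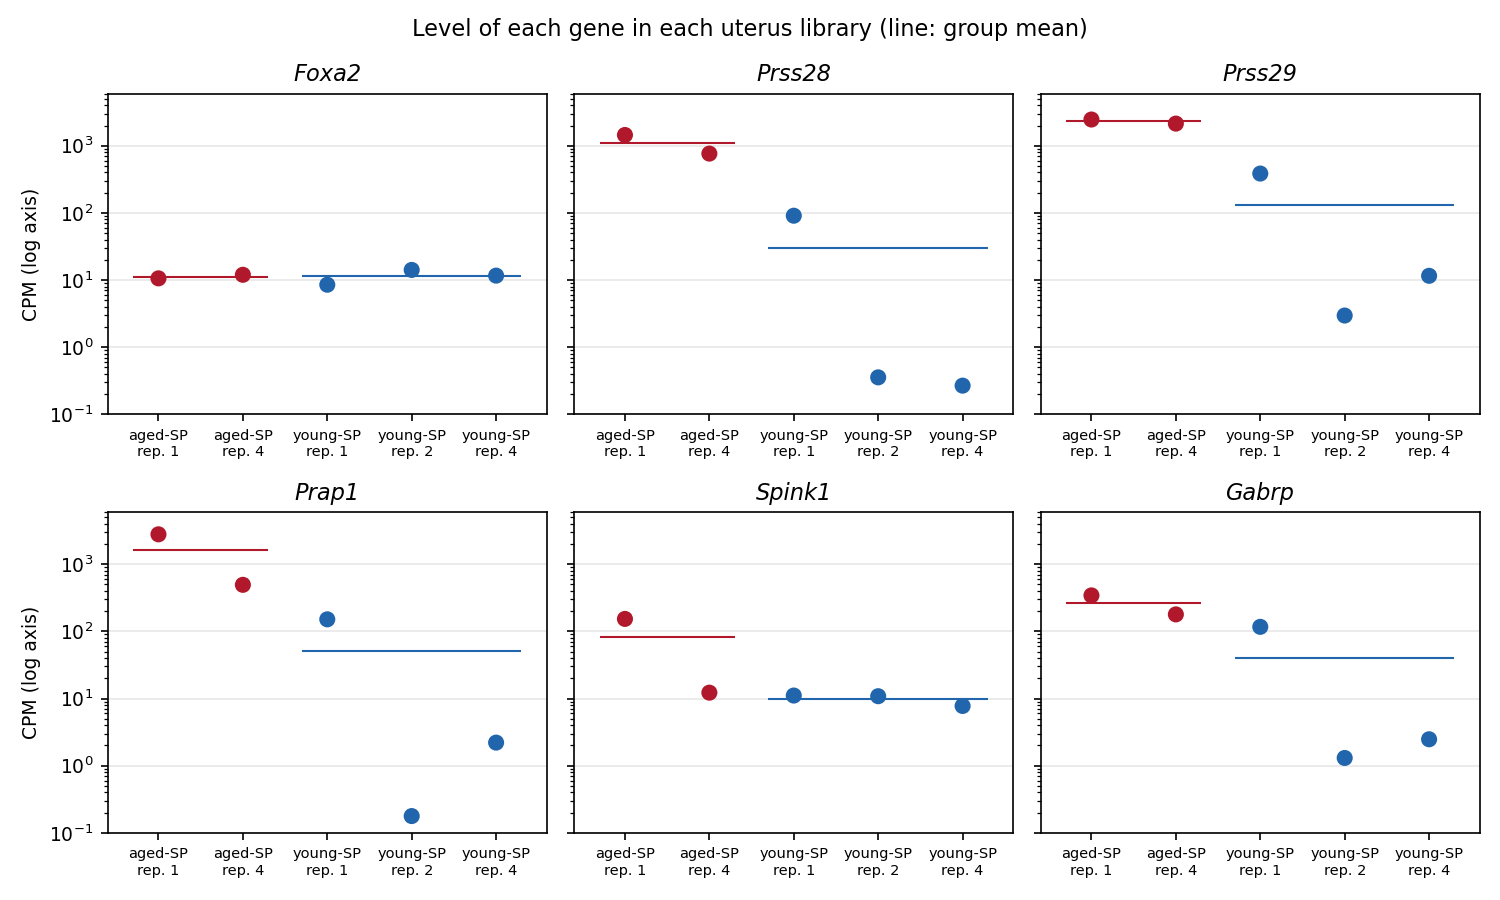
Level of each of the 6 genes in CPM (log axis) in each of the 5 libraries, aged-SP in red and young-SP in blue, with a line at each group's mean. Foxa2 lies between 8.51 and 14.1 CPM everywhere, Spink1 is high in aged-SP replicate 1 alone, and in the other 4 genes young-SP replicate 1 lies between the aged-SP libraries and the other young-SP libraries.

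Together the 6 genes took 0.712% and 0.359% of all counts in aged-SP replicates 1 and 4. In young-SP replicates 1, 2 and 4 they took 0.0758%, 0.00304% and 0.00356%. Both aged-SP libraries were above all young-SP libraries in 5 of the 6 genes, Foxa2 being the exception; among all tested genes this held for 19.5%. In the same 5 genes young-SP replicate 1 lay below both aged-SP libraries and above both other young-SP libraries, an order found in 7.24% of tested genes. Since the genes were chosen on these values, nothing is read from either share.

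Ranked by FPKM among all 28666 genes of a library, Prap1 was 5th and 47th in aged-SP replicates 1 and 4, Prss29 was 10th and 15th, and Prss28 was 28th and 68th. In young-SP replicate 1 these ranks were 183, 137 and 628. In young-SP replicates 2 and 4 Prap1 ranked 17396 and 9980, Prss29 11235 and 5355, and Prss28 17283 and 18053. The proteases and Prap1 were thus among the most abundant uterine transcripts in the aged-SP libraries and well down the list in 2 young-SP libraries. Gabrp ranked 424 and 897 in the aged-SP group, 1525 in young-SP replicate 1, and 16622 and 14902 in the other 2. Spink1 ranked 117 in aged-SP replicate 1 and between 1786 and 2962 elsewhere, and Foxa2 ranked between 7683 and 10072 throughout.

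**Figure D2:**
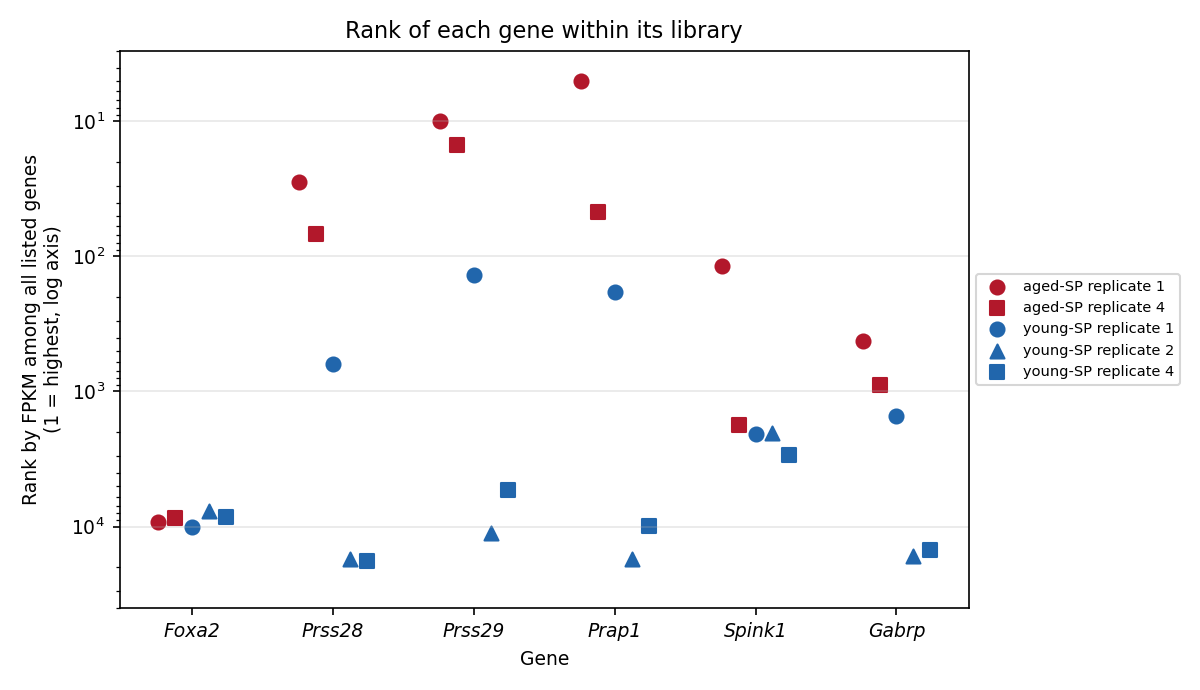
Rank of each gene by FPKM within each library (log axis, 1 at the top is the highest of 28666 genes), with colour for the group and marker shape for the replicate. Prap1 reaches rank 5 and Prss29 rank 10 in aged-SP replicate 1, while Foxa2 stays between 7683 and 10072 in all libraries.

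With all 5 libraries, edgeR's quasi-likelihood test (called at a Benjamini-Hochberg adjusted p below 0.05 with a log2 fold change beyond 1 in size) called 0 of the 6 genes, beside 0.147% of all tested genes. At an unadjusted p under 0.05 it was 1 of the 6, Spink1, beside 3228 of all 17013 tested genes. DESeq2's Wald test also called 0, where 3.6% of its genes were called, and it gave no adjusted p to Prss28, Prss29, Prap1 and Gabrp, whose p-values its outlier filter (Cook's distance) withheld. Without young-SP replicate 1, edgeR called 4 of the 6 higher in the aged-SP group (Prss28, Prss29, Prap1 and Gabrp), beside 1.74% of tested genes called higher and 3.45% called in either direction. On the same 4 libraries DESeq2 called these 4 genes (3.46% of its genes were called higher) and limma-voom called 3 of them, without Prap1 (1.3%). Spink1 was called by edgeR when aged-SP replicate 4 was left out, beside 0.227% of tested genes called higher. The rule that chose the genes used this contrast, so these counts are no evidence about them.

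**Figure D3:**
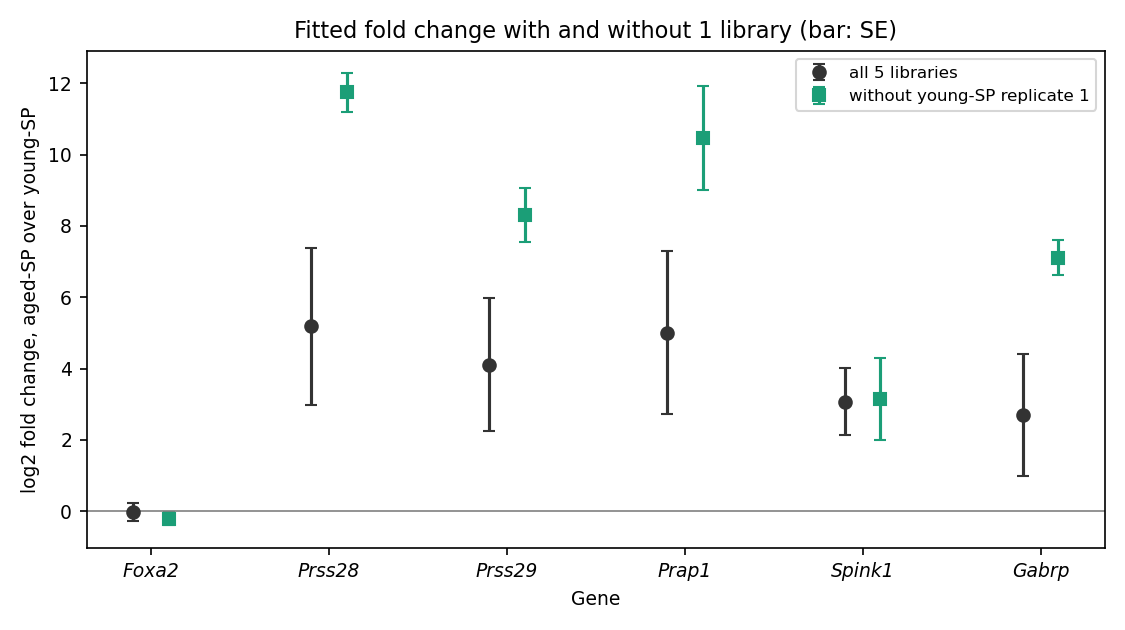
Fitted log2 fold change (aged-SP over young-SP) for each gene, with all 5 libraries (circles) and without young-SP replicate 1 (squares); bars are SE. Prss28 moves from 5.18 to 11.74 and Gabrp from 2.70 to 7.11, while Spink1 (3.07 and 3.15) and Foxa2 (-0.019 and -0.205) change little.

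By the gene ontology terms in the deposited table, 4 of the 6 genes (Prss28, Prss29, Prap1 and Spink1) belong to the extracellular region or space, as do 7.10% of all listed genes. Prss28 and Prss29 share serine-type endopeptidase activity with 187 listed genes in all, embryo implantation with 54 and blastocyst hatching with 6. Gabrp has chloride channel activity (47 listed genes).

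The genes whose profile over the 5 libraries was most like each of the 6 were found by the root mean square difference of log2 CPM after each gene's mean was taken off, among 15565 genes with a mean of at least 1 CPM. For Foxa2 they were Chrdl2, a secreted antagonist of bone morphogenetic proteins (0.037), the ribosomal pseudogene Rpl36a-ps1 (0.037), whose reads may come from its parent gene, and the semaphorin receptor Plxna2 (0.047). For Prss28 they were Trim12a (1.50), Lcn2 (1.56) and Mmp7 (1.73). For Prss29 they were Sftpd (0.643), Trim12a (0.902) and Chil1 (0.904), and for Prap1 they were Mmp7 (0.938), Sftpd (1.46) and Lcn2 (1.52). Gabrp was most like Chil1 (0.365), Lpo (0.610) and Sftpd (0.657). Sftpd was thus named for 3 of the 6 genes, and Trim12a, Lcn2, Mmp7 and Chil1 for 2 each; all were higher in both aged-SP libraries and in young-SP replicate 1 than in the other 2.

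Several of them are secreted defence proteins of epithelia. Sftpd, surfactant protein D, a lectin that binds microbes, stood at 239 and 167 CPM in the aged-SP libraries and at 84.9, 0.296 and 2.74 CPM in young-SP replicates 1, 2 and 4. Lcn2, lipocalin 2, which binds bacterial iron carriers, stood at 1673 and 1085 CPM in the aged-SP group, at 1634 CPM in young-SP replicate 1, and at 2.31 and 4.01 CPM in the other 2. Unlike the proteases, Lcn2 was as high in young-SP replicate 1 as in the aged-SP group. Mmp7, matrilysin, a metalloprotease of glandular epithelia, stood at 525 and 32.6 CPM in the aged-SP libraries and at 51.2, 0 and 0.534 CPM in the young-SP libraries, so that, like Prap1, it was highest in aged-SP replicate 1. Lpo, lactoperoxidase, lay between 14.6 and 18.5 CPM in the aged-SP libraries and young-SP replicate 1 and at 0 and 0.200 CPM in the other 2. Chil1, a chitinase-like protein, stood at 169, 76.5, 82.0, 0.355 and 0.868 CPM in the same order of libraries. Trim12a had 0 counts in young-SP replicates 2 and 4, and has a near-identical copy with which its reads may be shared.

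Spink1 was most like the transporter gene Slc12a8 (0.267), 1700011H14Rik (0.333) and the secreted ribonuclease gene Rnase1 (0.345). Rnase1 stood at 18.8 CPM in aged-SP replicate 1 and between 1.14 and 2.88 CPM in the other libraries, and Slc12a8 at 17.7 CPM against 1.06 to 1.98 CPM. Like Spink1, these genes were high in 1 library only. Among the 6 genes themselves, the closest profiles were those of Prss29 and Gabrp (0.859), Prss29 and Prap1 (1.18), Prss28 and Prap1 (1.20) and Prss28 and Prss29 (1.41), and Foxa2 was 1.63 from Spink1 and between 3.46 and 5.23 from the rest. All these distances come from the same 5 libraries and are a description.

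**Figure D4:**
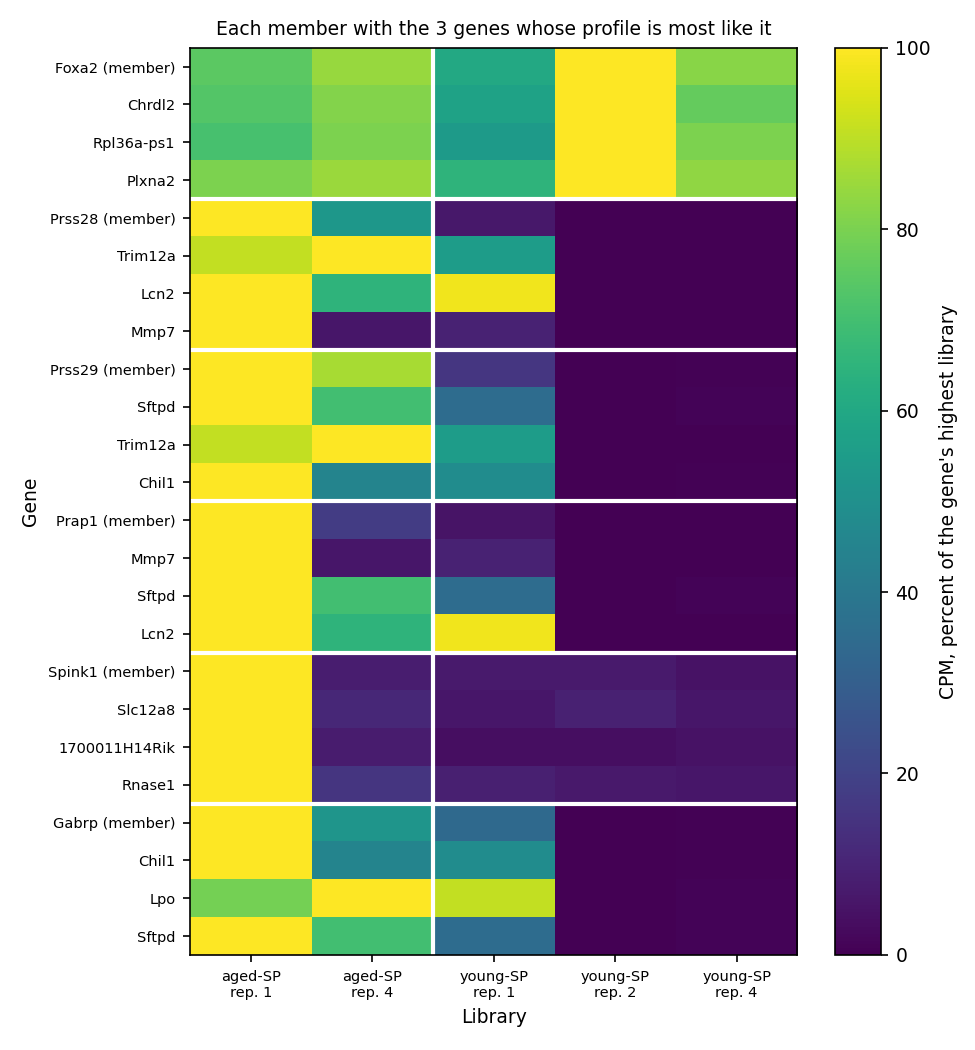
Each of the 6 genes (marked member) with the 3 genes most like it in profile, as CPM in percent of the gene's own highest library; columns are the 5 libraries, the white vertical line divides the groups. The genes beside Prss28, Prss29, Prap1 and Gabrp are near 0 in young-SP replicates 2 and 4, and those beside Spink1 are high in aged-SP replicate 1 alone.

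The other genes of the pathways, families and cell types were read from 16 lists, 143 genes in the table outside the 6, of which 110 were tested. With all 5 libraries edgeR called 0 of them, beside 0.147% of all tested genes. At an unadjusted p under 0.05 it was 34 of the 110, beside 3228 of all 17013. DESeq2 called 14 of them (3.6% of its genes were called) and limma-voom 2 (27 genes in all). Without young-SP replicate 1, edgeR called 16 of 109, of which 6 were higher and 10 lower after aged SP, beside 3.45% of all tested genes. The lists were written with earlier results of these data known, so nothing is read from these counts. The median log2 fold change of all tested genes was 0.0072.

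Among 8 tested regulators of glands (median log2 fold change 0.22, and 0.51 without young-SP replicate 1), none was called with all 5 libraries; without young-SP replicate 1, Sox9 and Lgr5 were called higher and Sox17 and Lef1 lower. Lgr5, a marker of gland progenitor cells, stood at 9.55 and 15.2 CPM in the aged-SP libraries and at 11.1, 1.12 and 0.668 CPM in young-SP replicates 1, 2 and 4. Sox9, a transcription factor of gland cells, stood at 34.3 and 22.0 CPM and at 21.3, 9.10 and 7.94 CPM. Sox17, a transcription factor needed for uterine glands to form, stood at 99.6 and 137 CPM against 206, 236 and 253 CPM, so that for it young-SP replicate 1 was nearer to its own group. Lef1, a mediator of Wnt signals, stood at 5.38 and 5.05 CPM against 7.51, 17.6 and 20.4 CPM. The most abundant of the list per length, Ctnnb1 (beta-catenin), lay between 638 and 697 CPM in all libraries. Foxa1 and Foxa3, the relatives of Foxa2, were below the count filter.

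Of 6 tested gland secretions (median 0.46, and 1.07 without that library), none was called with all libraries and Lcn2 was called higher without young-SP replicate 1 (log2 fold change 8.77, SE 0.43, against 1.34, SE 2.35, with it). Not every secretion followed the proteases. Cxcl15 was lower in the aged-SP group, at 2.90 and 1.92 CPM against 8.69, 20.2 and 8.14 CPM (log2 fold change -2.35, SE 0.53, not called). Ttr, transthyretin, near the floor in every library, was also lower, at 0.242 and 0 CPM against 1.63, 2.31 and 1.27 CPM. Its log2 fold change of -3.73 (SE 0.87) was not called. Pigr went the other way, at 1143 and 301 CPM against 445, 27.8 and 57.9 CPM (log2 fold change 2.03, SE 1.23, not called). Lif, the gland cytokine required for implantation, stood at 6.41 and 2.62 CPM in the aged-SP libraries and between 2.25 and 3.63 CPM in the young-SP libraries. The gene models Dcpp1, Dcpp2 and Dcpp3 were not analysed here.

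The list for luminal epithelium (median -0.81, and -0.90 without young-SP replicate 1) held genes that differed in both directions. Without young-SP replicate 1, Muc1 was called higher and Lpar3, Calb1, Ihh and Areg lower, of 9 tested genes. Ltf, lactotransferrin, an estrogen-induced product of the epithelium and the most abundant of the list, stood at 2708 and 4330 CPM in the aged-SP libraries, at 3632 CPM in young-SP replicate 1, and at 28.3 and 394 CPM in the other 2. Ihh, the progesterone-induced hedgehog ligand, stood at 7.98 and 11.5 CPM against 20.8, 45.3 and 34.6 CPM, and Ptch1, its receptor and target in the stroma, at 76.7 and 58.8 CPM against 90.9, 193 and 183 CPM. Areg, amphiregulin, another gene that progesterone induces, stood at 0.060 and 0 CPM against 0.188, 1.66 and 3.07 CPM. Calb1, calbindin, stood at 102 and 60.3 CPM against 520, 399 and 558 CPM, and here young-SP replicate 1 was not apart from its group.

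Markers of all epithelium were measured beside these genes. Of the 12 markers all were in the table and none was at 0, and their summed level was 1517 and 1582 CPM in aged-SP replicates 1 and 4 and 1959, 1075 and 1301 CPM in young-SP replicates 1, 2 and 4. Epcam stood at 262 and 235 CPM in the aged-SP group and at 281, 76.6 and 87.1 CPM in the young-SP group, Krt18 at 228 and 216 CPM against 191, 157 and 166 CPM, and Krt8, the most abundant per length, at 206 and 298 CPM against 401, 202 and 238 CPM. The median of the list was 0.195, and 0.43 without that library. Without young-SP replicate 1, Epcam and Elf3 were called higher and the tight junction gene Cldn3 lower. The summed level of epithelial markers differed at most 1.82-fold between libraries. Single markers varied more or less than their sum, Krt7 from 27.4 to 133 CPM and Cldn4 from 26.2 to 33.85 CPM. Stroma markers, 8 of 8 in the table, summed to 9618 and 11560 CPM in the aged-SP libraries and to between 13250 and 16400 CPM in the young-SP libraries (median -0.34, and -0.46 without young-SP replicate 1, none called), and Col1a1, a collagen chain, stood at 2412 and 2869 CPM against 4382, 5193 and 5232 CPM. The part of epithelial content in the levels of the 6 genes was not tested.

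**Figure D5:**
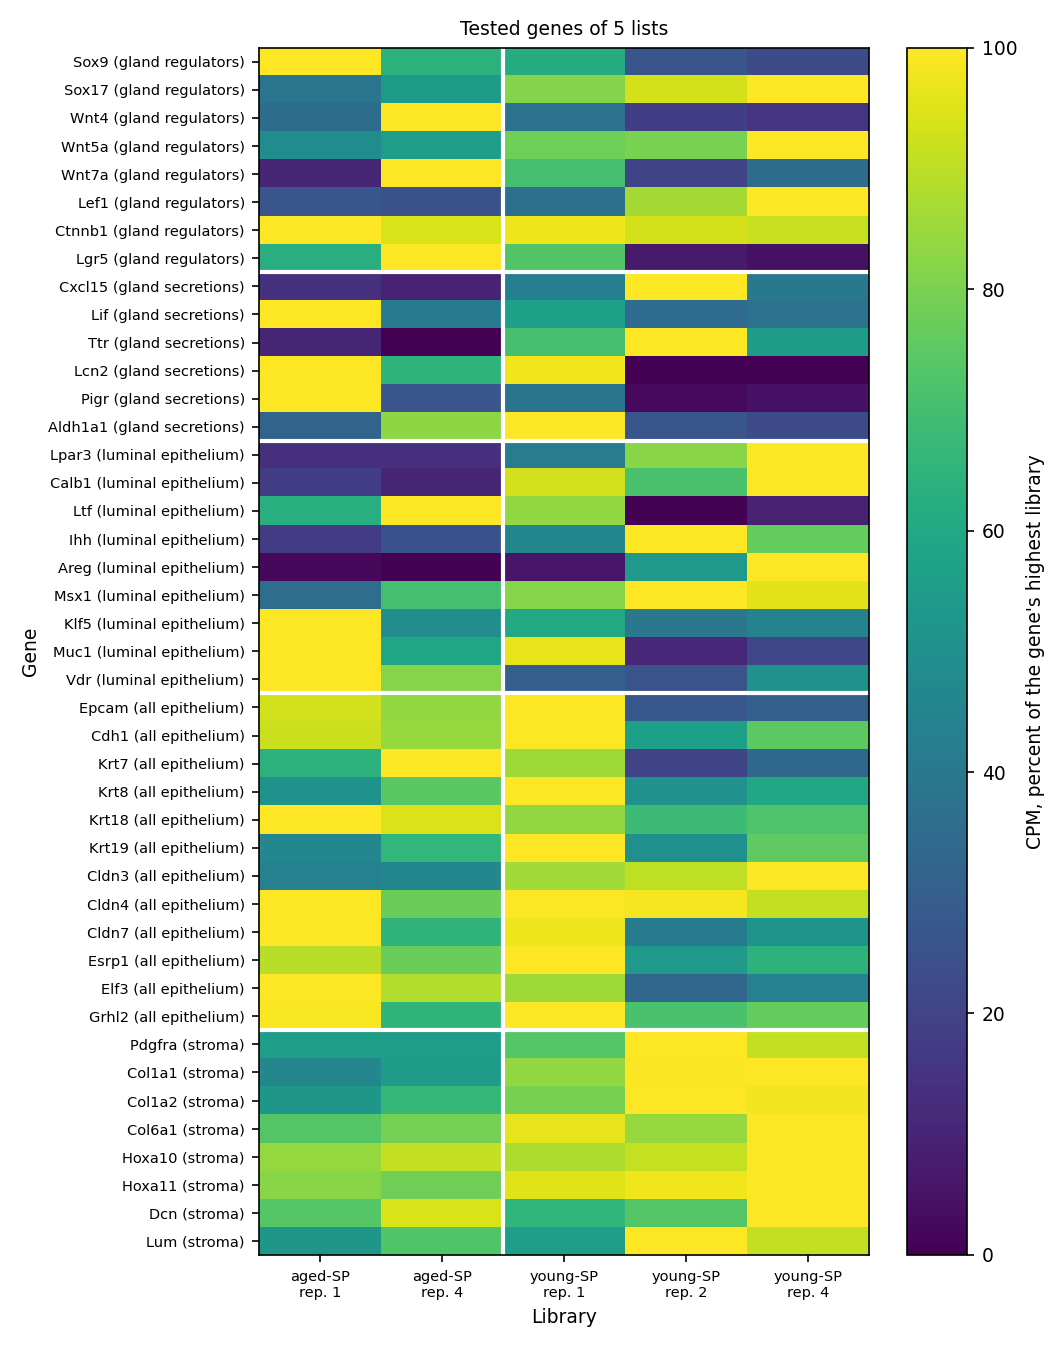
The tested genes of the lists for gland regulators, gland secretions, luminal epithelium, all epithelium and stroma, as CPM in percent of the gene's own highest library, by library. Lcn2, Ltf, Muc1 and Epcam are high in aged-SP replicates 1 and 4 and in young-SP replicate 1, whereas Lpar3, Ihh and Areg are highest in young-SP replicates 2 and 4.

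Of 10 genes of the tryptase cluster on chromosome 17 that were in the table, 4 were tested (median 0.54, and 0.97 without young-SP replicate 1) and none was called; the largest fold change was that of Tpsab1, another mast cell tryptase (log2 1.50, SE 0.74). The largest levels were those of the mast cell tryptase Tpsb2, at 8.52 and 28.5 CPM in the aged-SP group and 2.75, 8.39 and 12.1 CPM in the young-SP group. Mast cell markers (7 of 7 in the table) summed to 232 and 300 CPM in the aged-SP libraries and to between 418 and 583 CPM in the young-SP libraries. Hdc, which makes histamine, was the largest part of each sum, and 5 of the 7 markers had a log2 fold change above 0. The median of the list was 1.25, and 0.91 without young-SP replicate 1, and its largest fold change was that of Fcer1a (log2 2.201, SE 0.90). Hdc stood at 165 and 115 CPM in the aged-SP libraries against 483, 348 and 485 CPM and was called lower without young-SP replicate 1, while Cpa3 was highest in aged-SP replicate 4 (52.6 CPM). Among 14 tested other serine proteases (median 0.67, and 0.69 without young-SP replicate 1) none was called. The most abundant per length was Htra3, at 271 and 381 CPM against 160, 99.8 and 199 CPM. Klk1, a tissue kallikrein, was high in the library where Spink1 was high, at 95.7 CPM in aged-SP replicate 1 and between 2.37 and 9.27 CPM elsewhere, and the membrane protease Tmprss4 stood at 295 and 46.5 CPM against 66.5, 9.75 and 12.4 CPM.

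Among inhibitors, Spint2, a membrane-bound Kunitz inhibitor, stood at 670 and 275 CPM in the aged-SP libraries and at 223, 111 and 128 CPM in the young-SP libraries (log2 fold change 1.62, SE 0.46, not called). Spink12 was found in aged-SP replicate 4, at 13.4 CPM, and in young-SP replicate 1, at 1.63 CPM, and had 0.067 CPM or less in the other 3. Spink1 and Spink12 were thus high in different aged-SP libraries. Spink8 stood at 3.69 and 11.3 CPM in the aged-SP libraries and at 13.5, 3.19 and 4.87 CPM in the young-SP libraries. Of 9 inhibitors in the table, 4 were tested (median 1.31) and none was called, and without young-SP replicate 1 3 were tested (median 1.42) and none was called. Of 19 GABA receptor and enzyme genes in the table, 8 were tested (median -0.050, and 0.092 without young-SP replicate 1) and none was called with all libraries; the largest fold change was that of Gabra4 (log2 -1.03, SE 0.61). The level of the other GABA-A receptor subunits tested was highest for Gabra3, at 17.97 CPM in aged-SP replicate 4. Abat, which breaks down GABA, stood at 46.3 and 50.5 CPM against 83.4, 92.9 and 101 CPM and was called lower without young-SP replicate 1.

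Of the receptors of the hormones and of Lif, Esr1, Pgr and Il6st varied less than Lifr. Esr1, the estrogen receptor, stood at 419 and 395 CPM in the aged-SP group and at 311, 343 and 354 CPM in the young-SP group, and Pgr, the progesterone receptor, at 202 ± 2.503 CPM (SD, n = 2) against 253 ± 33.2 CPM (SD, n = 3). Il6st, the shared receptor subunit for Lif, lay between 459 and 683 CPM. Lifr, the Lif receptor, stood at 95.2 and 62.1 CPM in the aged-SP group and at 54.2, 33.6 and 41.6 CPM in the young-SP group. Its log2 fold change was 0.87 (SE 0.26, not called). Of the 8 genes of this list (median -0.036, and -0.082 without that library) Ptch1 alone was called, lower, without young-SP replicate 1. No gene of the lists for myometrium, leukocytes, vagina and cervix, or oviduct was called with or without young-SP replicate 1, and their medians were -0.082, -0.20, 0.29 and -0.39 with it and -0.16, 0.26, 0.68 and -0.675 without it, so that the sign of the leukocyte median turned. Their largest fold changes were those of Tagln in myometrium (log2 0.59, SE 0.55), Cd3e in leukocytes (-0.81, SE 0.68), Dsg3 in vagina and cervix (0.88, SE 1.01) and Tekt1 in oviduct (-2.18, SE 0.69). Acta2, smooth muscle actin, lay between 2475 and 4268 CPM, and Ovgp1, the oviduct glycoprotein, between 35.1 and 233 CPM. Markers of vagina and cervix summed to between 1.92 and 4.90 CPM, and S100a9, of neutrophils, stood at 50.1 and 2.18 CPM in the aged-SP libraries and at 102, 14.5 and 5.34 CPM in the young-SP libraries.

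Shared sequence touched 2 of the 6 genes. Of the 1181 stretches of 50 bases in Prss29 transcripts, 8 (0.677%) also occur in transcripts of another gene model, AC122454.1, and 0 of those of Prss28 do. An exon of Prap1 overlaps Fuom on the other strand, and the strand setting of the counting is not given in the sources used here, so reads of the overlap cannot be told apart. Fuom itself stood at 33.4 and 26.1 CPM in the aged-SP libraries and at 34.0, 17.4 and 18.8 CPM in the young-SP libraries, below Prap1 in the aged-SP libraries and young-SP replicate 1 and above it in the other 2.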

How the data were processed

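Uterine RNA of 2 aged-SP and 3 young-SP libraries was analysed, grouped by the sample titles, and the number of unused per-sample columns was 0. After read filtering the authors ran HISAT2 2.1.0 (the submitters' processing notes also name Bowtie2 2.2.3 and HTSeq 0.6.0) and deposited raw counts of reads per gene. The deposited FPKM equal the counts over gene length and library total, and served for ranks and for levels between genes. The authors' mean, fold changes and p-values in the same table were not used.

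Counts were tested with edgeR 4.0.16 (filterByExpr, TMM, glmQLFit and glmQLFTest, two-sided) over all tested genes, with Benjamini-Hochberg adjustment; calls needed an adjusted p below 0.05 with a log2 fold change beyond 1 in size, as in the study's methods. SE for edgeR is the size of the fitted log2 fold change divided by the square root of its quasi-likelihood F statistic. Alternatives were DESeq2 1.42.0, limma 3.58.1 (voom), other scalings and filters, a replicate block and each library left out; DESeq2 without its outlier filter and edgeR's robust option were added after seeing the data. The scripts ran in R 4.3.3 and Python 3.11.15. The edgeR, DESeq2 and limma-voom fits alone were tested on simulated counts, in which no library stood apart within its group. Log2 CPM for profiles had a prior count of 2, and intervals are exact binomial at 95%.

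The members and lists were chosen with earlier results of these data known. Named genes were the 6 members, the 3 most similar profiles of each, and, from each list, the most abundant gene per length, the gene with the largest fold change and the called genes. Genes called without young-SP replicate 1, and Lif, Lifr, Cxcl15, Pigr, Krt7, Krt18, Cldn4, Tmprss4, Cpa3, Spink8, Esr1 and Pgr, were named after their values were seen. The study's methods speak of biological and technical replicates of its experiments without saying which animals gave these libraries, so p-values measure the spread between these libraries, which may be technical. Promoters are RefSeq's on GRCm38.p6; positions are those of the deposited table, and 26999 of 28666 genes had the same position in GENCODE M21. Protein sequences were not used here. An item of the list for luminal epithelium is not reported here and was left out of its counts.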

Additional observations from a re-analysis of the deposited data

How the results depend on the processing

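With all 5 libraries, edgeR called 25 genes in all. The count was 632 with DESeq2, with or without its outlier filter, 203 with no filter on low counts, and 1 to 578 when 1 library was left out (578 without young-SP replicate 1, 1 without aged-SP replicate 1). Of the 6 genes described, 0 to 4 were called when 1 library was left out, and 0 under every other alternative run on 5 libraries. Of the listed genes 0 were called with edgeR, 14 with DESeq2 with or without its outlier filter, 2 with limma-voom, 4 with no filter on low counts, and 0 to 16 with 1 library left out. The cause of these differences was not tested. The 4 calls without young-SP replicate 1 were 4 with DESeq2 and 3 with limma-voom.

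The fitted log2 fold change over the alternatives lay between 4.596 and 11.74 for Prss28, 3.53 and 8.30 for Prss29, 3.27 and 10.46 for Prap1, 0.30 and 3.95 for Spink1, and 2.13 and 7.11 for Gabrp, all above 0. For Foxa2 it lay between -0.205 and 0.18, above 0 in 4 of 14 alternatives. The median of a list kept its sign in 202 of 224 pairs of list and alternative and changed it in 22. The largest median to change sign was that of the pancreas, -1.53, which was 0.60 with at least 10 counts in every sample. That minimum removed Cpb1, at 0 CPM in aged-SP replicate 1, so that 0.60 is the value of Cela1 alone. That of gland regulators, 0.22, was -0.24 with the replicate block. Single libraries also moved the median of a list. With 1 library left out it lay between -0.37 (without aged-SP replicate 4) and 0.51 for gland regulators, 0.23 and 1.07 for gland secretions, -1.38 and -0.12 (without young-SP replicate 4) for luminal epithelium, 0.015 (without young-SP replicate 2) and 0.43 for all epithelium, -0.011 (without aged-SP replicate 4) and 1.88 (without aged-SP replicate 1) for the tryptase cluster, 0.21 (without aged-SP replicate 4) and 1.42 for the inhibitors, and 0.020 (without aged-SP replicate 4) and 1.90 (without aged-SP replicate 1) for mast cells. A minimum of 10 counts in every sample removed Prss28 and Prap1, which then had no value. The groups share replicate numbers 1 and 4, but the labels do not say that a number marks a shared origin. With 2 pairs the numbers were not taken to pair the libraries. The correlations of deviations from the group mean were 0.15 and 0.14. With 2 aged-SP libraries their deviations are mirror images, so these values are linked and do not decide on pairing. With the replicate block, edgeR called 2 genes in all, 0 of the 6 and 0 of the listed genes. Groups of 2 and 3 libraries cannot show whether young-SP replicate 1 or the other 2 young-SP libraries are the more usual, and the lowest levels of Prss28 and Prap1 rest on 3 to 6 counts.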
